A study of Mus musculus with 19 samples.

Results

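The peroxiredoxins and the thioredoxin system are described here by 10 genes, the 6 peroxiredoxins Prdx1 to Prdx6, the thioredoxins Txn1 and Txn2, the mitochondrial thioredoxin reductase Txnrd2 and the thioredoxin-interacting protein Txnip. They were taken from the count table by gene name, 10 of 54532 genes, and all 10 passed the filter on low counts in every comparison. The data are bulk RNA-seq of whole obstructed kidneys of 19 male mice, 8 to 9 weeks old and on a C57BL/6J background, taken on day 12 of unilateral ureteral obstruction (UUO), in which the left ureter is tied and a piece of it removed. WT mice and mice lacking CD5L (CD5L KO), a protein that macrophages release into the blood, were injected into the peritoneum every day with recombinant CD5L (rCD5L, 0.5 mg per mouse and injection, made in CHO-S cells) or with an equal volume of PBS. There were 5 WT kidneys with PBS, 5 WT kidneys with rCD5L, 4 CD5L KO kidneys with PBS and 5 CD5L KO kidneys with rCD5L. The study describes all 19 kidneys as obstructed, so no comparison below is with a group of intact kidneys. Of the targeted gene, Cd5l, WT kidneys had 3 to 15 counts each and CD5L KO kidneys had 0, a value that leaves room for 3 counts per library.

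Peroxiredoxins reduce hydrogen peroxide with a cysteine of their own, and most of them are then returned to the reduced state by thioredoxin. Thioredoxin is in turn reduced by thioredoxin reductase with NADPH, so the 3 kinds of protein form a relay. Txnip binds reduced thioredoxin and inhibits it, and its gene is strongly induced by glucose through the factors MondoA and ChREBP. Prdx1, Txn1 and other genes of the relay are known targets of Nrf2, the factor that induces antioxidant genes under oxidative stress.

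RefSeq promoters (build GRCm38.p6, 250 bases before to 50 after the start of the gene) were found for 9 of the 10 genes, all except Prdx6. The bases before the start are printed for Prdx1 and Txn1, called in the comparison of genotypes, and for Txnip, the inhibitor of Txn1. They end where the gene as counted (GENCODE M21) begins, which is the RefSeq start for Txn1 and Txnip. For Prdx1 it is 55 bases before the RefSeq start, so 195 bases are printed for Prdx1 and 250 for each of the others. They lie at chr4:116685349-116685543 on the plus strand (Prdx1), chr4:57956412-57956661 on the minus strand (Txn1) and chr3:96557707-96557956 on the plus strand (Txnip). Capitals mark a match to the core of the antioxidant response element bound by Nrf2 (TGACNNNGC) or to a carbohydrate response element (CACGNG, any 5 bases, CACGNG), searched on both strands.
Prdx1: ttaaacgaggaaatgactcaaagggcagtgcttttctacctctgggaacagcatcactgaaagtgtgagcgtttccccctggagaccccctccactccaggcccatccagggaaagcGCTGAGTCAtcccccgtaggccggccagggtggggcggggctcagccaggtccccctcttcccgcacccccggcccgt
Txn1: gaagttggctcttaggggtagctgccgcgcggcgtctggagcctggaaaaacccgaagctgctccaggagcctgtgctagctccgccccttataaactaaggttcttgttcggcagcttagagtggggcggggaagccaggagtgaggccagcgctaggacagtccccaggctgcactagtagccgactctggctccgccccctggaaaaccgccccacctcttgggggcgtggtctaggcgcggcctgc
Txnip: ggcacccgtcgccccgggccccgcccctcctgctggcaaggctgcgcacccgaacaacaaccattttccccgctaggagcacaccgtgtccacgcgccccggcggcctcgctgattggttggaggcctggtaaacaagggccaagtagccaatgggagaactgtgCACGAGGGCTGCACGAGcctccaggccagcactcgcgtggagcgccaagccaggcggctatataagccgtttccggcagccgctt
Prdx1 held the only antioxidant response element core among the 9 windows, 133 to 125 bases before the RefSeq start and 78 to 70 bases before the start of the gene as counted. That motif was in 4071 of 32851 mouse promoters of the same length, or 12.4%. Txnip held the only carbohydrate response element among the 9 windows, 85 to 69 bases before the start, a motif in 16 of 32851 promoters, or 0.0487%. All 9 windows held at least 1 GC box (GGGCGG), as did 35.7% of all promoters, and Txn1 had 4. These matches describe the letters of the windows, and a window without one says nothing of the factor.

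Each kidney had between 17917491 and 23847090 counts, and the least abundant of the 10 genes, Txnrd2, had between 310 and 628 counts in every kidney. Of the 5 CD5L KO kidneys given rCD5L, kidney 4 stood apart from all others. The summed level of 8 proximal tubule markers was 23260 CPM (counts scaled to library size with TMM factors) there and between 1961 and 4176 CPM in the other 18 kidneys, and that of 8 mitochondrially encoded genes was 132000 against 19360 to 41500 CPM. Its 4 markers of injured tubule (Havcr1, Lcn2, Vcam1 and Krt20) summed to 645 CPM against 1538 to 2121 CPM, and its 6 macrophage markers to 670.3 CPM against 1660 to 2706 CPM. Over 13 marker lists, kidney 4 lay above every other kidney in 4 and below every other kidney in 5, and kidney 3 of the same group above in 1 and below in 1. The study describes kidney 4 as obstructed like the others, and whether its obstruction matched theirs was not tested. No marker was at 0 in every kidney, and every proximal tubule, loop of Henle, distal nephron and podocyte marker was counted in every kidney. For most fold changes of this group, the value without kidney 4 or without kidneys 3 and 4 is given as well. In whole kidney, more cells of a type and more RNA per cell cannot be told apart.

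On the length-corrected scale (FPKM, reads scaled to gene length and library size by the authors), Txnip was the most abundant of the 10 genes in WT kidneys given PBS, at 286.6 ± 23.4 FPKM (SD, n = 5), followed by Txn1 at 206 ± 9.91, Prdx5 at 181 ± 25.8 and Prdx1 at 154 ± 11.3 FPKM. Prdx2 at 70.8 ± 2.85 and Prdx3 at 61.2 ± 5.08 FPKM came next, then Prdx6 at 32.1 ± 1.70, Txn2 at 21.9 ± 1.65, Prdx4 at 15.8 ± 1.45 and Txnrd2 at 3.41 ± 0.197 FPKM. Of the 9 neighbouring pairs in this order, Txn1 and Prdx5, Prdx5 and Prdx1, and Prdx2 and Prdx3 overlapped between kidneys, and the other 6 pairs did not. In CD5L KO kidneys given PBS the order was the same, but Txnip at 246.1 ± 15.7 FPKM and Txn1 at 242.7 ± 2.95 FPKM (n = 4) now overlapped, as did Txn1 and Prdx5, Prdx5 and Prdx1, and Prdx2 and Prdx3. WT kidneys given rCD5L kept the order, with only Prdx5 and Prdx1 overlapping. CD5L KO kidneys given rCD5L had Prdx5 first, at 322.1 ± 243.7 FPKM, although it was above the next gene, Txn1, in only 2 of the 5 kidneys. Without kidney 4 the first 3 were again Txnip at 227.6 ± 30.9, Txn1 at 224.2 ± 20.3 and Prdx5 at 218.5 ± 86.7 FPKM (n = 4).

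The first question was how the relay differed between CD5L KO and WT kidneys when both received PBS. Prdx1, Prdx3, Txn1 and Prdx2 rose in CD5L KO kidneys, by 14.4% to 32.2%. Of the other 6 genes, which did not pass the test, 3 had higher and 3 lower means. In each of the 4 genes, the lowest of the 4 CD5L KO kidneys exceeded the highest of the 5 WT kidneys. Over all 17579 genes tested, 10.5% were called, 5.13% higher and 5.4% lower, and in 7.35% the lowest CD5L KO kidney exceeded the highest WT kidney. The median log2 fold change was 0.18 for the 10 genes and -0.0046 for all genes tested.

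**Figure D1:**
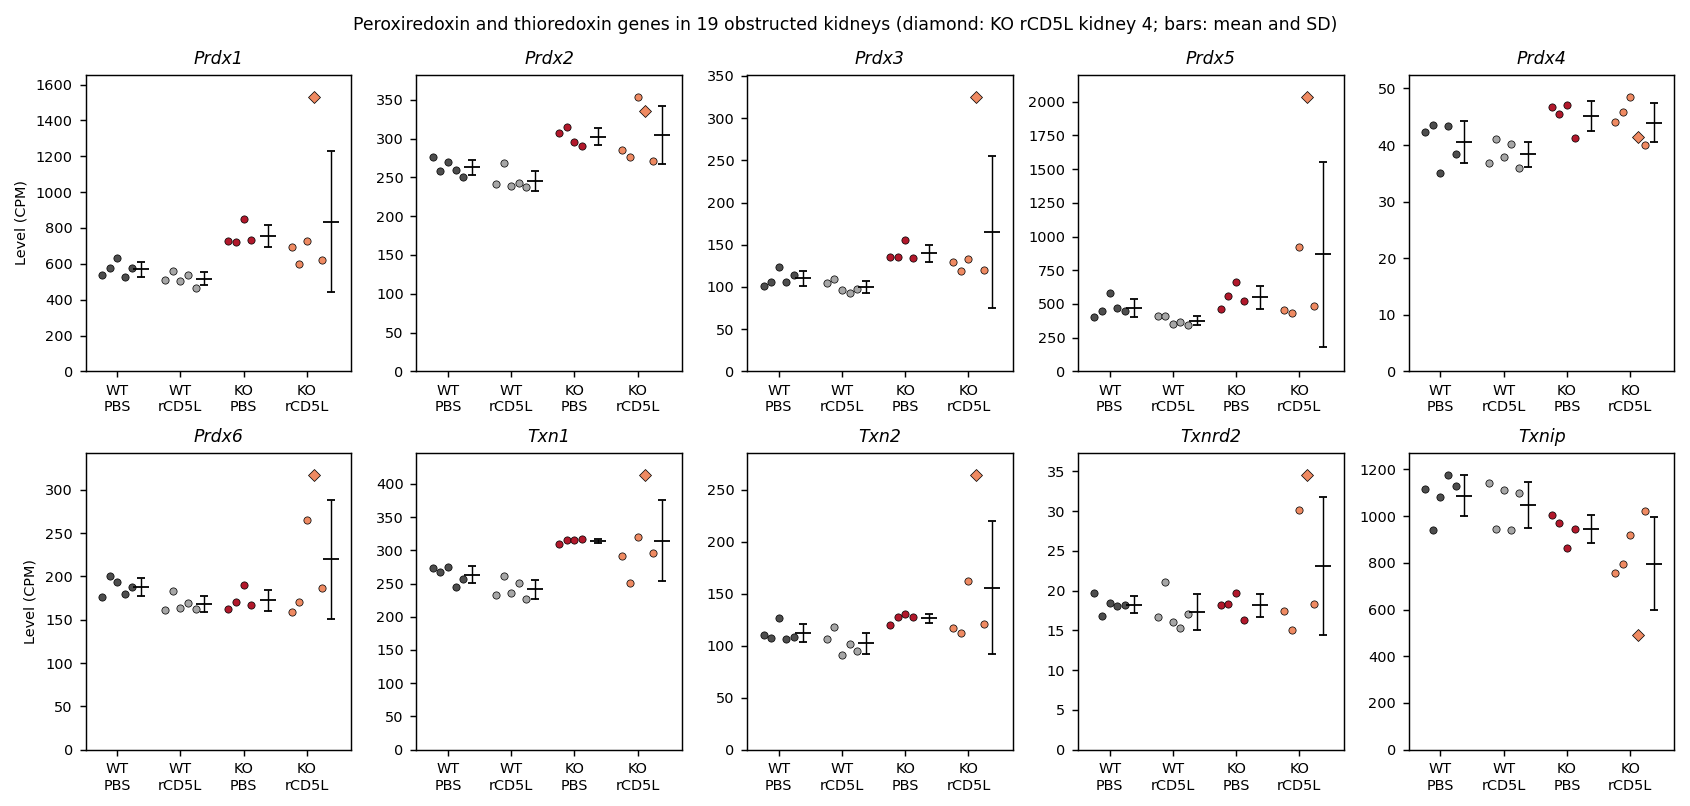
Level of each gene in CPM (linear axes from 0) in every kidney by group, with the mean and SD beside the points; the diamond is kidney 4 of the CD5L KO mice given rCD5L. In Prdx1, Prdx2, Prdx3 and Txn1 the 4 CD5L KO kidneys given PBS sit above the 5 WT kidneys given PBS, and the diamond is the highest point of all for 7 genes and the lowest for Txnip.

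Prdx1 (ENSMUSG00000028691, chr4:116685544-116700822, plus strand, GRCm38), the abundant cytosolic peroxiredoxin whose promoter held the antioxidant response element core shown above, was at 726, 719, 848 and 732 CPM in the 4 CD5L KO kidneys and at 538, 574, 633, 527 and 575 CPM in the 5 WT kidneys. The groups did not overlap, and CD5L KO kidney 3 was the highest. The level was 1.32-fold higher in CD5L KO kidneys, 756 ± 61.4 against 569 ± 41.8 CPM (log2 fold change 0.40, SE 0.0703, edgeR quasi-likelihood test, adjusted p = 0.00677). Prdx2 (ENSMUSG00000005161, chr8:84969587-84974834, plus strand), the other cytosolic 2-Cys enzyme and one that red cells hold in large amounts, was at 307, 314.8, 296 and 290.4 CPM against 276, 258, 269.9, 259 and 250.2 CPM. The lowest CD5L KO kidney was above the highest WT kidney, and the fold change was the smallest of the 4 genes called, 1.14-fold (log2 fold change 0.19, SE 0.0518, adjusted p = 0.0334). The summed level of 6 red cell genes overlapped between the groups, at 203 to 408 CPM in CD5L KO and 219 to 496 CPM in WT kidneys.

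Prdx3 (ENSMUSG00000024997, chr19:60864051-60874556, minus strand), the peroxiredoxin of the mitochondrial matrix, was at 135, 136, 155 and 135 CPM in CD5L KO kidneys and at 101, 106, 124, 105 and 114 CPM in WT kidneys, so that every CD5L KO kidney was above every WT kidney. It rose 1.27-fold (log2 fold change 0.34, SE 0.0689, adjusted p = 0.0107). Prdx5, which is found in mitochondria, peroxisomes and the cytosol, ranged from 459.8 to 664 CPM in CD5L KO and from 404 to 583 CPM in WT kidneys, and its difference did not pass the test (log2 fold change 0.22, 95% interval -0.031 to 0.46, adjusted p = 0.247). Leaving out 1 kidney moved it between 0.12, without CD5L KO kidney 3, and 0.30, without WT kidney 3 (adjusted p = 0.536 and 0.0678). Prdx4, the peroxiredoxin of the endoplasmic reticulum, was at 41.3 to 47.0 against 35.0 to 43.5 CPM (log2 fold change 0.15, 95% interval -0.013 to 0.31, adjusted p = 0.224). Prdx6, a 1-Cys enzyme that relies on glutathione instead of thioredoxin, was the only peroxiredoxin with a lower mean in CD5L KO kidneys, 172.6 ± 12.0 against 187.6 ± 9.95 CPM, and 3 of the 4 CD5L KO kidneys lay below all WT kidneys (log2 fold change -0.13, 95% interval -0.26 to 0.0045, adjusted p = 0.203).

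Txn1 (ENSMUSG00000028367, chr4:57943373-57956411, minus strand), the cytosolic thioredoxin, was at 309, 316, 315 and 317 CPM in CD5L KO kidneys and at 274, 267, 275, 245 and 257 CPM in WT kidneys. The CD5L KO kidneys differed from each other by a coefficient of variation of 1.09%, against 4.75% in WT, and the groups did not overlap (log2 fold change 0.25, SE 0.0513, adjusted p = 0.0119). Txn2, its mitochondrial counterpart, was at 126 ± 4.57 CPM in CD5L KO and 112 ± 8.36 CPM in WT kidneys, and WT kidney 3 lay within the CD5L KO range (log2 fold change 0.17, 95% interval 0.036 to 0.30, adjusted p = 0.0983). Txnrd2, which reduces Txn2, had nearly the same mean in both groups, 18.2 ± 1.42 and 18.2 ± 1.04 CPM (log2 fold change -0.014, 95% interval -0.18 to 0.15, adjusted p = 0.933). Txnip (ENSMUSG00000038393, chr3:96557957-96561883, plus strand), the gene with the carbohydrate response element, was at 1007, 971, 866 and 944 CPM in CD5L KO kidneys and at 1117, 941, 1082, 1175 and 1127 CPM in WT kidneys. Only WT kidney 2 lay within the CD5L KO range, and the lower mean in CD5L KO kidneys did not pass the test (log2 fold change -0.21, 95% interval -0.37 to -0.049, adjusted p = 0.0911). With DESeq2 the difference in Txnip passed (adjusted p = 0.0353), and it also did in edgeR without WT kidney 2 (log2 fold change -0.26, adjusted p = 0.0472), while Txn2 passed without WT kidney 3 (log2 fold change 0.21, adjusted p = 0.0204).

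**Figure D2:**
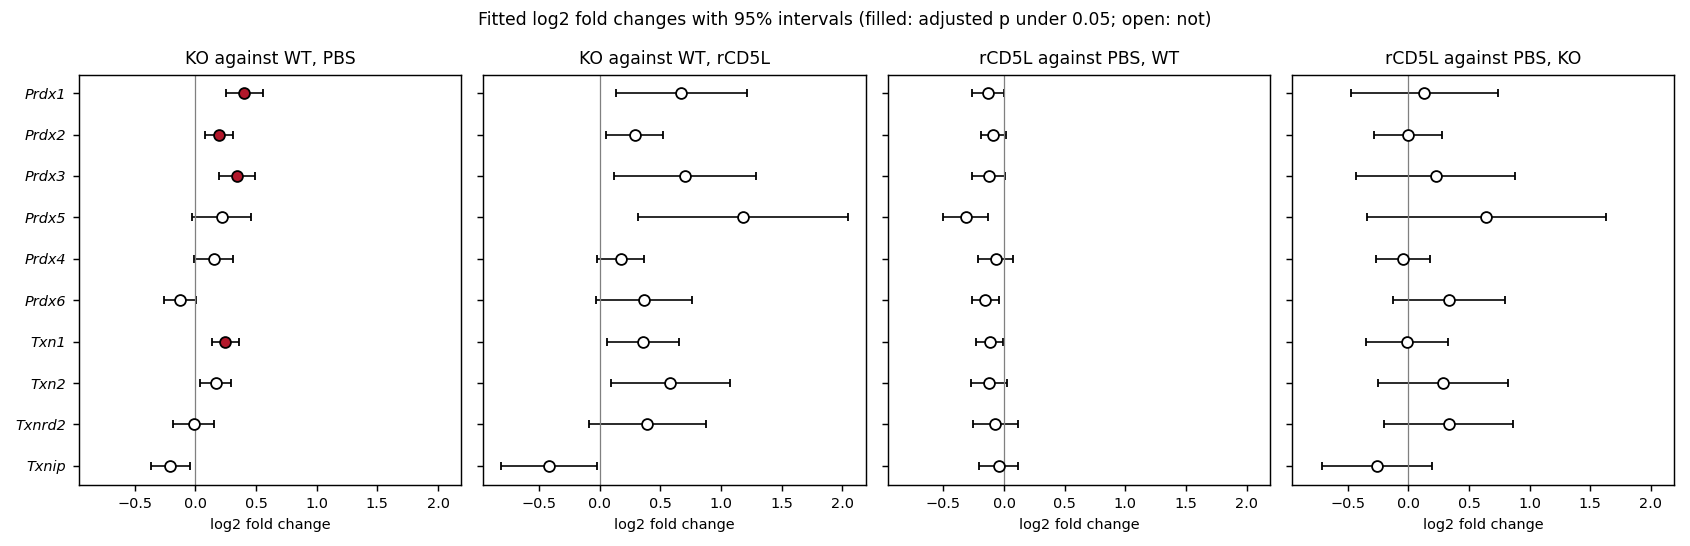
Fitted log2 fold change of each gene with its 95% interval in the 4 comparisons of groups; filled points have an adjusted p under 0.05. The filled points are Prdx1, Prdx2, Prdx3 and Txn1 in CD5L KO against WT with PBS, and the intervals are widest where the CD5L KO kidneys given rCD5L enter.

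The calls depended on how the spread and the gene length were handled. Across all genes, shorter genes were higher in CD5L KO kidneys (Spearman's rho of log2 fold change and length -0.277 over 17579 genes, which are not independent), and the median length of the 10 genes was 3046.5 bases against 3808 for all genes tested. With an offset for length, which called 7.42% of all genes, Prdx1 alone of the 10 stayed called, with a log2 fold change of 0.38, and Prdx3 (0.23, adjusted p = 0.0661), Prdx2 (0.17, adjusted p = 0.0563) and Txn1 (0.11, adjusted p = 0.205) did not. In 1 fit of all 19 kidneys, which called 12 genes or 0.065% of those tested, none of the 10 genes was called, although the log2 fold changes were as large (Prdx1 0.41, adjusted p = 0.456; Prdx3 0.35, adjusted p = 0.615; Txn1 0.25, adjusted p = 0.355). Without kidney 4 of the CD5L KO mice given rCD5L, an alternative chosen after seeing the data, the same fit called 4.03% of all genes, Prdx1, Prdx3 and Txn1 among them (adjusted p = 0.0107, 0.0162 and 0.0493). Prdx2 lost its call without CD5L KO kidney 1 or 2 or without WT kidney 2, 4 or 5, each left out alone, with an adjusted p of up to 0.0977. It also lost it with no filter on low counts (adjusted p = 0.0658) and on the FPKM scale without a filter (adjusted p = 0.0521). The log2 fold change of Prdx2 was 0.15 to 0.20 over the alternative settings and 0.17 to 0.22 with each kidney left out.

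Marker lists also differed between these groups. The gene length at the middle of a kidney's counts was 3710 to 3868 bases in CD5L KO and 3970 to 4159 bases in WT kidneys. The 4 endothelial markers summed to 362 to 420.3 CPM in CD5L KO and 446 to 510.1 CPM in WT kidneys, without overlap, and the 4 urothelial markers to 145 to 250.5 against 18.8 to 139 CPM, also without overlap. Proximal tubule markers overlapped, at 2081 to 3694 against 2160 to 4176 CPM, and so did the mitochondrially encoded genes, at 28900 to 41500 against 22950 to 33630 CPM, and the injured tubule markers, at 1835 to 2121 against 1538 to 1877 CPM. CD5L KO kidney 3 and WT kidney 3, which were the highest of their groups for Prdx1 and Prdx3, were also the highest for the mitochondrially encoded genes. The part of these differences in the results on the relay was not tested.

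Another 30 genes of the pathway were examined in the same comparison, and 4 of them rose and 5 fell, where 5.13% of all genes tested rose and 5.4% fell. Those that rose were Txndc17, a small thioredoxin-like protein, from 97.9 ± 5.29 to 119.6 ± 5.20 CPM (adjusted p = 0.00956), the glutaredoxins Glrx (log2 fold change 0.30, adjusted p = 0.0121) and Glrx3 (0.27, adjusted p = 0.0103), and Tmx3, a thioredoxin-domain protein of the endoplasmic reticulum (0.22, adjusted p = 0.0274). Map3k5, the kinase ASK1 that reduced thioredoxin binds and inhibits, fell from 78.1 ± 3.15 to 64.5 ± 2.07 CPM (log2 fold change -0.28, adjusted p = 0.0072). Arrdc3, an arrestin-domain relative of Txnip, fell from 177 ± 13.1 to 142 ± 8.80 CPM (-0.33, adjusted p = 0.0107), and Mlxip, which encodes MondoA, fell from 58.7 ± 4.86 to 46.9 ± 1.39 CPM (-0.33, adjusted p = 0.00945). The methionine sulfoxide reductase Msrb3 (-0.36, adjusted p = 0.0145) and the endoplasmic reticulum disulfide isomerase Txndc5 (-0.20, adjusted p = 0.0327) fell as well. The cytosolic reductase Txnrd1 was at 125 ± 18.5 CPM in CD5L KO and 127.5 ± 12.4 CPM in WT kidneys and was not called (adjusted p = 0.846), nor was Srxn1, sulfiredoxin, which repairs overoxidized peroxiredoxins (log2 fold change 0.15, adjusted p = 0.346). The median log2 fold change of the 30 genes was 0.061. In 1 fit of all 19 kidneys none of the 30 was called, as for the 10 genes above, and without kidney 4 of the CD5L KO mice given rCD5L that fit called 5 (Txndc17, Glrx, Glrx3, Map3k5 and Mlxip), beside 4.03% of all genes. With the length offset, Txndc17 (0.16, adjusted p = 0.0596) and Txndc5 (-0.18, adjusted p = 0.0578) were not called, and 9 of the 30 were called in all, 7 of them named above, beside 7.42% of all genes.

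**Figure D3:**
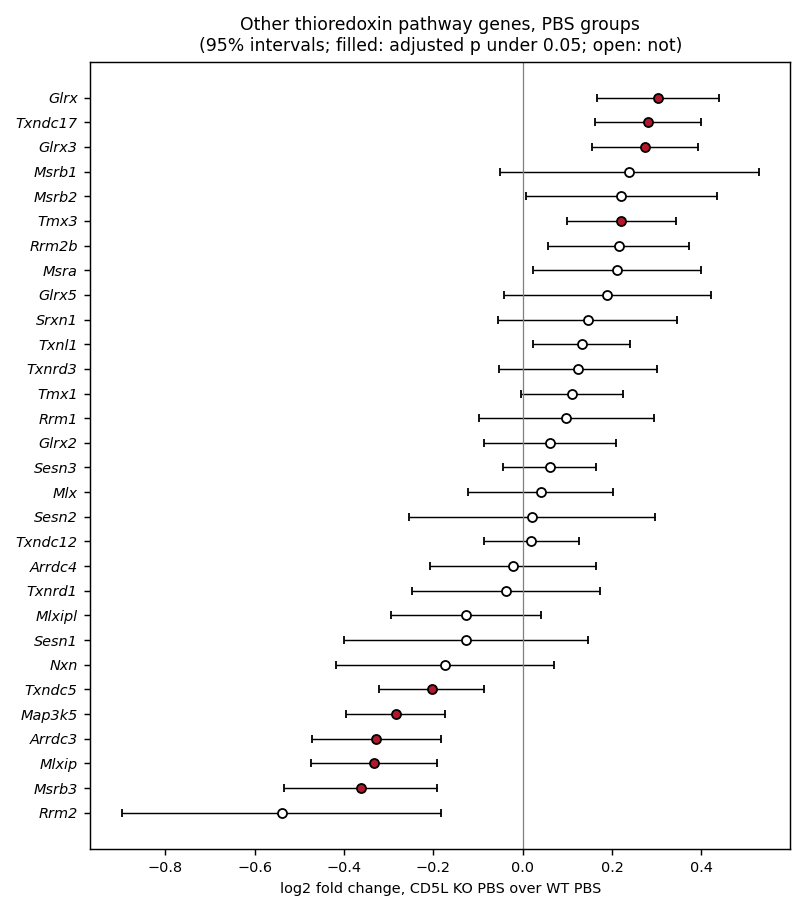
Log2 fold change of 30 other genes of the thioredoxin pathway, CD5L KO over WT kidneys with PBS, sorted, with 95% intervals; filled points have an adjusted p under 0.05. The 4 genes that rose and the 5 that fell carry filled points, and Rrm2 has the lowest value, open and with a wide interval.

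When both genotypes received rCD5L, none of the 10 genes was called, and 0 of 17360 genes were (edgeR, 3090 or 17.8% at an unadjusted p under 0.05, 7 of the 10 genes among them, and 64 genes called by DESeq2). The means of 9 of the 10 genes were higher in CD5L KO kidneys, and Txnip was lower. Prdx1, Prdx2, Prdx3 and Prdx5 had every CD5L KO kidney above the highest WT kidney (5 against 5), as did 4.62% of all genes. Prdx1 was at 696, 599, 728, 1533 and 618 CPM in CD5L KO kidneys and at 510.1, 559.7, 507, 539.6 and 464 CPM in the WT group, and its log2 fold change was 0.67 with kidney 4 (adjusted p = 0.259) and 0.33 without it (adjusted p = 0.173). Prdx5 was at 456, 433, 926, 2039 and 486 CPM against 411, 409, 349.8, 366 and 344 CPM, a log2 fold change of 1.18 with kidney 4 and of 0.59 without it (adjusted p = 0.259 and 0.206). Prdx3 was at 129.5, 119, 133, 326 and 119.6 CPM against 105, 109, 96.4, 92.7 and 97.3 CPM, and its log2 fold change went from 0.70 to 0.30 when kidney 4 was left out. Kidney 4 carried much of the size of these differences. Shorter genes were higher in CD5L KO kidneys here too (Spearman's rho -0.276 across 17360 genes). The gene length at the middle of a kidney's counts was 3324 to 4032 bases in CD5L KO and 4135 to 4300.0 bases in WT kidneys. With the length offset the log2 fold changes were 0.67 for Prdx1, 0.59 for Prdx3, 1.13 for Prdx5 and 0.21 for Txn1, the last from 0.36. Beside these values, the mitochondrially encoded genes summed to 26220 to 132000 CPM in CD5L KO and 19360 to 25540 CPM in WT kidneys, and the endothelial markers to 350.0 to 393 against 406 to 448 CPM, neither with overlap. Their part in the result was not tested.

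The calls in this comparison depended on which kidneys entered the fit. With all 19 kidneys in 1 fit, 6 of the 10 genes were called (Prdx1, Prdx2, Prdx3, Prdx5, Txn1 and Txn2, adjusted p = 0.0403 to 0.0468), as were 1291 or 7% of all genes tested. With kidney 4 left out of that fit, and likewise with kidneys 3 and 4 left out of the fit of the 2 groups, both chosen after seeing the data, 2 of the 10 genes were called, Prdx1 and Prdx3 in each, beside 3.69% and 3.58% of all genes. Their log2 fold changes were 0.29 and 0.28 in the 3 remaining CD5L KO kidneys (adjusted p = 0.041 and 0.0378). Without kidneys 3 and 4, Prdx6 had a log2 fold change of 0.026 and Txnrd2 of -0.037, where all 5 kidneys had given 0.36 and 0.39.

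None of the 10 genes was called for rCD5L against PBS in WT kidneys, nor was any of 17455 genes (edgeR, 2797 or 16% at an unadjusted p under 0.05, and 508 called by DESeq2). All 10 genes had a lower mean with rCD5L, with a median log2 fold change of -0.12, against 0.0046 for all genes. Prdx5 had the lowest value, at 411, 409, 349.8, 366 and 344 CPM with rCD5L and 404, 448, 583, 471 and 450.7 CPM with PBS, and the groups overlapped through WT PBS kidney 1 (log2 fold change -0.32, 95% interval -0.51 to -0.13, adjusted p = 0.121). DESeq2 called Prdx5 alone of the 10 genes (adjusted p = 0.0213). Prdx6 was at 168 ± 9.17 CPM with rCD5L and 187.6 ± 9.95 CPM with PBS, with 4 of 5 rCD5L kidneys below all PBS kidneys (log2 fold change -0.15, adjusted p = 0.171). Txn1 was at 241 ± 14.3 against 263 ± 12.5 CPM (log2 fold change -0.12, adjusted p = 0.29). No gene of the 10 had groups that did not overlap, where 3.6% of all genes did. Longer genes were higher with rCD5L (Spearman's rho 0.24 across 17455 genes). With the length offset Txn1 went from -0.12 to -0.043, Prdx3 from -0.13 to -0.068 and Prdx4 from -0.068 to -0.029, while Prdx5 was at -0.28 and Prdx6 at -0.17. In the same kidneys the mitochondrially encoded genes summed to 19360 to 25540 CPM with rCD5L and 22950 to 33630 CPM with PBS.

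None of the 30 other pathway genes was called in WT kidneys given rCD5L by edgeR, and 1 was by DESeq2. The 3 with the smallest p were Arrdc3 (log2 fold change -0.24, adjusted p = 0.107), Sesn3, a sestrin (0.16, adjusted p = 0.14), and Msra, a methionine sulfoxide reductase (-0.26, adjusted p = 0.167).

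In CD5L KO kidneys, rCD5L against PBS gave 0 called genes among the 10 and 0 of 17467 in all (edgeR, 502 or 2.87% at an unadjusted p under 0.05, and 3 called by DESeq2). Prdx1 was at 696, 599, 728, 1533 and 618 CPM with rCD5L, so that 3 kidneys lay below the lowest PBS kidney, 719 CPM, and kidney 4 lay above the highest. Its log2 fold change was 0.13 (95% interval -0.48 to 0.74) with kidney 4 and -0.20 without it. Prdx3 likewise had 4 rCD5L kidneys below all PBS kidneys and kidney 4 above them, and its log2 fold change went from 0.23 to -0.16. Prdx5, with the largest log2 fold change of the 10 here, went from 0.64 to 0.063 (PBS 459.8 to 664 CPM). Txn1 was at 292, 251, 319, 414 and 297 CPM with rCD5L and between 309 and 317 CPM with PBS, a log2 fold change of -0.011 with kidney 4 and of -0.12 without it. The direction of Prdx1 and Prdx3 turned when kidney 4 was left out, while that of Txn1, close to 0, did not. No setting called any of the 10 genes.

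**Figure D4:**
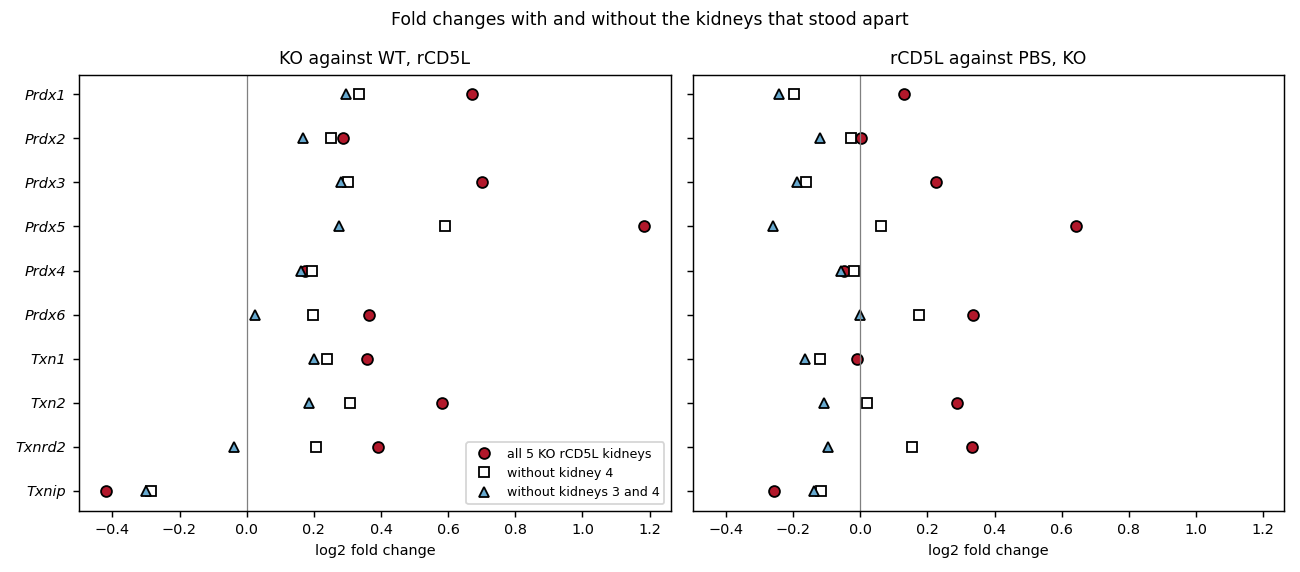
Log2 fold change of each gene with all 5 CD5L KO kidneys given rCD5L, without kidney 4, and without kidneys 3 and 4, for CD5L KO against WT with rCD5L (left) and rCD5L against PBS in CD5L KO mice (right). On the left, Prdx1 to Prdx6, Txn1 and Txn2 stay above 0 in all 3 settings; on the right, Prdx1, Prdx2 and Prdx3 fall below 0 without kidney 4, and all 10 genes are below 0 without kidneys 3 and 4.

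Kidneys 3 and 4 both differed from the other 3 kidneys of their group, Prdx5 the most in each. Against the median of those 3 kidneys, kidney 4 had 4.47 times the level of Prdx5, 2.72 times that of Prdx3, 2.48 times that of Prdx1, 2.26 times that of Txn2 and 1.98 times that of Txnrd2. Kidney 3 had 2.03 times the level of Prdx5, 1.73 times that of Txnrd2, 1.56 times that of Prdx6 and 1.39 times that of Txn2, but only 1.18 times that of Prdx1 and 1.11 times that of Prdx3. Prdx4 was little different in either (0.942 and 1.1 times), and Txnip was at 0.617 times in kidney 4 and 1.16 times in kidney 3. The mitochondrially encoded genes summed to 132000 CPM in kidney 4, 38250 CPM in kidney 3 and 26220 to 28350 CPM in the other 3. The part of these genes in the results was not tested.

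Among the 30 other pathway genes in CD5L KO kidneys, 0 were called for rCD5L. The 3 with the smallest p were Rrm2, a subunit of ribonucleotide reductase, which draws on thioredoxin, Txnrd1 (log2 fold change 0.44) and Txnrd3 (0.26), with an adjusted p of 0.897 each. Rrm2 was at 17.2, 18.1, 22.3, 16.5 and 16.8 CPM with rCD5L and at 13.8, 12.2, 13.3 and 12.6 CPM with PBS, so that 5 of 5 kidneys given rCD5L were above every PBS kidney, as in 1.25% of all genes (log2 fold change 0.47). Without kidney 4 the values were 0.51 for Rrm2, 0.28 for Txnrd1 and 0.16 for Txnrd3 (adjusted p = 0.763 each). The epididymis markers, genes of a tissue outside the kidney, also did not overlap between these groups, at 20.1 to 51.1 against 8.08 to 18.8 CPM, and 2 of the 6 had a kidney at 0. With rCD5L in both genotypes none was called either, and Glrx3 (0.36), Txnrd3 (0.41) and Msrb3 (-0.57) had the smallest p (adjusted p = 0.259 each). Without kidney 4 these were 0.29, 0.30 and -0.44 (adjusted p = 0.19 to 0.197), and 6 of the 30 genes were called with all 19 kidneys in 1 fit, beside 7% of all genes.

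Whether rCD5L acted differently in the genotypes was tested as an interaction over all 19 kidneys. None of the 10 genes was called, nor was any of 18454 genes (edgeR, 1154 or 6.25% at an unadjusted p under 0.05). Prdx6 (interaction 0.51 on the log2 scale, 95% interval 0.069 to 0.95) and Prdx5 (0.98, 95% interval 0.02 to 1.95) had the largest values among the 10, both with an adjusted p of 0.731. Without kidney 4 of the CD5L KO mice given rCD5L these values were 0.33 and 0.37 (adjusted p = 0.853 each), and without kidneys 3 and 4 they were 0.16 and 0.063.

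The ratio of Txnip to Txn1 in each kidney, on the FPKM scale, sets the inhibitor against its partner. It was 1.10, 1.03, 0.924 and 1.003 in CD5L KO kidneys given PBS and 1.37, 1.19, 1.32, 1.61 and 1.48 in WT kidneys given PBS. With rCD5L it was 0.874, 1.07, 0.969, 0.399 and 1.16 in CD5L KO kidneys and 1.66, 1.21, 1.59, 1.27 and 1.63 in WT kidneys. In both treatments every CD5L KO kidney had a lower ratio than every WT kidney, and kidney 4 had the lowest of all. As a background, the ratio of any tested gene to Txn1 (in CPM) was lower in all CD5L KO than in all WT kidneys for 31.1% of genes with PBS and for 11.5% with rCD5L, so the separation with PBS was common among ratios to Txn1. Within a genotype, the ratio overlapped between rCD5L and PBS.

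**Figure D5:**
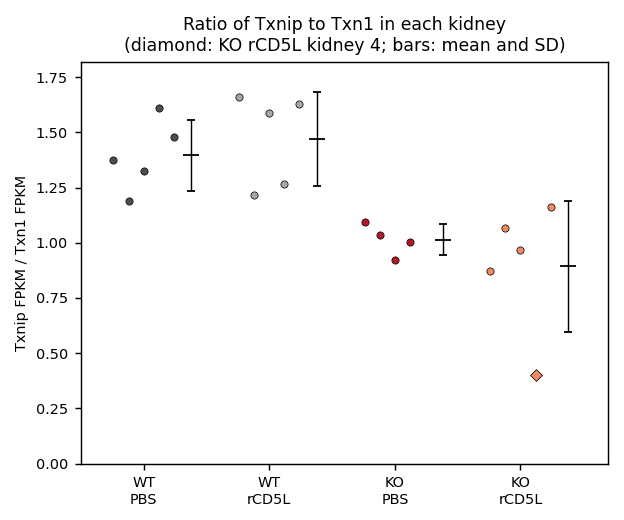
Ratio of Txnip to Txn1 (FPKM over FPKM, linear axis from 0) in every kidney by group, with mean and SD. The 9 CD5L KO kidneys lie between 0.399 and 1.16 and the 10 WT kidneys between 1.19 and 1.66.

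Some of these genes share exonic sequence with a gene on the opposite strand, and the strand setting of the counting is not given in the sources used here, so reads of both cannot be told apart there. In GENCODE M21 (GRCm38), Gm15441, an antisense RNA, covers 19.4% of the exonic bases of Txnip, and Trmt112 covers 19.1% of those of Prdx5. Junb and Rnaseh2a cover 5.67% and 5.8% of Prdx2, while Prdx1, Prdx3, Prdx4, Prdx6, Txn1 and Txn2 overlapped no other gene. Gm15441 was at 27.4 CPM in kidney 4 of the CD5L KO mice given rCD5L, at 4.62 CPM in kidney 3 and between 0.347 and 2.37 CPM in the other 17 kidneys. The kidney with the least Txnip thus had the most Gm15441. Kidney 3, with the next most Gm15441, had 919 CPM of Txnip, 1.16 times the median of its group without kidneys 3 and 4. In the fits of the groups compared, Gm15441 was not called. In CD5L KO against WT with rCD5L its log2 fold change was 3.28 with 5 of 5 CD5L KO kidneys above all WT kidneys (adjusted p = 0.259), and 1.66 without kidney 4 (adjusted p = 0.171). It was called there with all 19 kidneys in 1 fit (3.30, adjusted p = 0.0311) and in that fit without kidney 4 (1.66, adjusted p = 0.0323). For rCD5L in WT kidneys its log2 fold change was -1.22 (adjusted p = 0.125). Over the 19 kidneys Trmt112 lay between 30.9 and 62.3 CPM and Prdx5 between 344 and 2039 CPM. In kidney 4 of the CD5L KO mice given rCD5L they were at 49.0 and 2039 CPM. Trmt112 had a log2 fold change of -0.023 in CD5L KO against WT with PBS (adjusted p = 0.879), where that of Prdx5 was 0.22. Its values had the sign of those of Prdx5 in the other comparisons, -0.19 beside -0.32 for rCD5L in WT kidneys (adjusted p = 0.195), 0.23 beside 0.64 for rCD5L in CD5L KO kidneys (adjusted p = 0.897), and 0.40 beside 1.18 in CD5L KO against WT with rCD5L, with 5 of 5 CD5L KO kidneys above all WT kidneys (adjusted p = 0.259). With all 19 kidneys in 1 fit, Trmt112 was called in the latter comparison (0.42, adjusted p = 0.0418), as Prdx5 was. In that fit without kidney 4, Trmt112 was not called (0.38, adjusted p = 0.0634), and neither was Prdx5. The interaction was 0.44 for Trmt112 and 0.98 for Prdx5 (adjusted p = 0.731 each). Leaving out kidney 4 made the last 3 pairs 0.21 beside 0.063, 0.38 beside 0.59 and 0.40 beside 0.37. The near-identical copies of these genes by name, Prdx6b, Txn-ps1, Prdx6-ps2 and Prdx2-rs3, had at most 2 counts in any kidney, and how reads matching several places were counted is not given in the sources used here.

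The genes whose pattern over the kidneys was most like that of Prdx1 were Ndufa4 (Pearson's r of log2 CPM 0.989 over 19 kidneys, 0.979 without kidney 4), Ndufv2 (0.985) and Chchd3 (0.983), which encode mitochondrial proteins. Those most like Txn1 were Psma4, a proteasome subunit (r = 0.976), the pseudogene Cd63-ps (0.97) and Dbi (0.969). Those most like Txnip were Mks1 (r = 0.926), Klf11 (0.923) and Slc4a3 (0.916), with r of 0.756 to 0.836 without kidney 4. These are descriptions over kidneys of 4 groups, chosen from 18454 genes, and the points share the differences between groups and in marker levels given above.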

How the data were processed

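The study measured gene expression by bulk RNA-seq of 19 kidneys in 4 groups, all described as obstructed. Groups and replicate numbers were taken from the sample labels. The deposited counts are raw reads per gene, which the authors obtained by trimming with Trimmomatic, alignment to GRCm38 with HISAT2 and counting with featureCounts. A matching table of FPKM, divided by gene length and scaled between kidneys, was deposited too. Tool versions, strand setting and the counting of reads with several matches are not given in the sources used here. Every column was assigned to a sample, with 0 left over.

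The main test was the quasi-likelihood test of edgeR 4.0.16 (R 4.3.3), with TMM scaling and low genes removed by filterByExpr (minimum count 10). Genes were called at an adjusted p under 0.05 (Benjamini-Hochberg, over all genes tested). Each comparison was fitted on its own 2 groups, and the interaction on all 4. Standard errors were taken from the log2 fold change and the F statistic, and intervals are at 95%. The limit of 3 counts for a count of 0 covers counting error only. The tests were also run on simulated data. The changes set there were larger than those called in the main test among the genes described here, and no kidney was set apart. That run therefore does not cover small differences or a kidney like kidney 4.

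Alternatives comprised DESeq2 1.42.0, scaling by RLE, keeping all genes or those with at least 10 counts in every kidney, 1 fit of all 19 kidneys, the replicate number as a block, an offset for gene length (lowess span 0.3), FPKM with limma 3.58.1 at a pseudocount of 1 or 0.1, and leaving out each kidney. Leaving out kidney 4, or kidneys 3 and 4, of the CD5L KO mice given rCD5L in other ways, and all settings for the other pathway genes, were added after seeing the data. The 10 genes, the 30 other pathway genes and the 13 marker lists were chosen with earlier results of these data known. All 10 genes were named. Of the 30 others, those called were named, and where none was called the 3 with the smallest p, while Txnrd1 and Srxn1 were also named after their values were seen. The 3 genes most like Prdx1, Txn1 and Txnip were those with the highest Pearson's r. The labels do not say that a replicate number marks a shared litter, batch or day. Same-numbered kidneys of the groups compared had correlations of their deviations between -0.187 and 0.174, not over 0.1 in every pair of any comparison, so the numbers were not taken as pairs.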

Additional observations from a re-analysis of the deposited data

Results flagged for a closer look

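In 6 of the 40 combinations of gene and group, 1 kidney lay farther from the others than a test for a single outlying value (Dixon's test at 95%) allows. Chance alone gives about 1 in 20. The 40 combinations share kidneys and are not independent (r of Prdx1 and Prdx3 0.981 over 19 kidneys), so the 6 cannot be read as an excess over chance. Kidney 4 of the CD5L KO mice given rCD5L had 1533 CPM of Prdx1, with the next kidney at 727.5 CPM, and 325.5 CPM of Prdx3, with the next at 133.3 CPM. Kidney 3 of the CD5L KO mice given PBS had 848.3 CPM of Prdx1 against 731.8 CPM in the next kidney, and 155.1 CPM of Prdx3 against 135.8 CPM. It also had the highest proximal tubule markers of its group, 3694 CPM, and the highest mitochondrially encoded genes, 41500 CPM. Kidney 2 of the WT mice given rCD5L had 269 CPM of Prdx2 against 242.2 CPM in the next, and kidney 3 of the WT mice given PBS had 126.8 CPM of Txn2 against 110.6 CPM. The part of these markers in the values was not tested. Without CD5L KO kidney 3, Prdx1 (log2 fold change 0.35, adjusted p = 0.0156) and Prdx3 (0.29, adjusted p = 0.0268) stayed called in CD5L KO against WT with PBS by the edgeR test.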

How the results depend on the processing

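Of 1180 values of single genes under the alternatives, 44 changed sign, 18 lost a call, 15 gained one and the others kept their direction and their side of the threshold. In CD5L KO against WT with PBS, 4 of the 10 genes were called in the main test (1850 genes in all). In 1 fit of all 19 kidneys 0 were called (12 genes in all), and with the length offset 1 was (1305 genes in all). Leaving out each kidney gave 3 to 5. Over all genes, FPKM without a filter called 967, the fit of 18 kidneys without kidney 4 of the CD5L KO mice given rCD5L called 742, and leaving out each kidney called 1015 to 2062. The replicate block called 4 genes, with Prdx5 gained (adjusted p = 0.0341) and Prdx2 lost (adjusted p = 0.0561), and 2132 of all genes; it changed no count of the other comparisons. Since the numbers do not pair the kidneys, these fits are given here only.

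With rCD5L in both genotypes, 0 of the 10 genes were called, against 6 in 1 fit of all 19 kidneys (1291 genes in all), 2 in the fit of 18 kidneys (679) and 2 without kidneys 3 and 4 (644); DESeq2 called 64 genes, and leaving out each kidney called 0 to 1. For rCD5L in WT kidneys, DESeq2 called 1 of the 10 genes and 508 in all, the fit without a filter 137, and leaving out each kidney 0 to 39, the 39 without WT PBS kidney 1. For rCD5L in CD5L KO kidneys, DESeq2 called 3 genes and the fit of 18 kidneys 1.

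Changes of sign were as follows, on the log2 scale. Txnrd2 in CD5L KO against WT with PBS was 0.0065 with the length offset, 0.0053 with the block and the offset, and -0.051 to 0.039 with each kidney left out. For rCD5L in CD5L KO kidneys, Txn1 was 0.0040 with DESeq2, 0.0036 with RLE factors, 0.00018 with all 19 kidneys, 0.045 with the length offset and 0.034 with the block and the offset, and Prdx4 was 0.012 with the latter. Prdx2 was -0.0072 without a filter, -0.011 with at least 10 counts in every kidney, and -0.0063 at a pseudocount of 1, -0.0064 at 0.1 and -0.0063 without a filter on the FPKM scale. In the fit of 18 kidneys, Prdx1 was -0.20, Prdx2 -0.034 and Prdx3 -0.17. Without kidneys 3 and 4 they were -0.24, -0.12 and -0.19, with Prdx5 at -0.26, Prdx6 at -0.0018, Txn2 at -0.11 and Txnrd2 at -0.096. Leaving out each kidney moved Prdx1 between -0.20 and 0.23, Prdx2 between -0.053 and 0.035, Prdx3 between -0.16 and 0.32 and Txn1 between -0.12 and 0.057. Txnrd2 with rCD5L in both genotypes was -0.037 without kidneys 3 and 4. In the interaction, the values without kidneys 3 and 4 were -0.11 for Prdx1, -0.026 for Prdx2, -0.058 for Prdx3, -0.045 for Txn1 and -0.021 for Txnrd2, and leaving out each kidney moved Prdx1 between -0.067 and 0.38, Prdx3 between -0.037 and 0.47, Prdx4 between -0.0082 and 0.087 and Txn1 between -0.0051 and 0.20. Apart from the settings that leave out kidneys, the cause was not tested.

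These libraries came from whole kidneys at 1 time point, with 4 or 5 mice a group, so levels in single cell types, proteins and their oxidation state were not measured. The intervals for CD5L KO kidneys given rCD5L are the widest, and a gene that was not called there is not shown to be the same.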
